A study of Mus musculus with 28 samples.

Results

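The 9 genes described here encode the alanine transaminases (Gpt, Gpt2), the aspartate transaminases (Got1, Got2), the branched-chain amino acid transaminases (Bcat1, Bcat2) and subunits of the branched-chain ketoacid dehydrogenase (Bckdha, Bckdhb, Dbt). They were chosen by symbol for their enzyme function, matched through GRCm38 annotation to 9 of the 53342 gene identifiers in each count table, and all 9 passed the filter on low counts in every comparison. When α2-Na/K ATPase was deleted in astrocytes, Gpt was upregulated in bulk cortex at both ages and on astrocyte ribosomes, where Gpt2 was downregulated.

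Transaminases move an amino group between an amino acid and a ketoacid, with glutamate and 2-oxoglutarate as the usual partner pair. In brain, astrocytes clear synaptic glutamate, and transamination links that glutamate to alanine, aspartate and the branched-chain amino acids leucine, isoleucine and valine. Each transaminase pair has a cytosolic enzyme (Gpt, Got1, Bcat1) and a mitochondrial enzyme (Gpt2, Got2, Bcat2), and the ketoacids left by branched-chain transamination are committed to oxidation by the mitochondrial dehydrogenase complex.

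RNA from mouse cerebral cortex was sequenced in 28 libraries, each from 1 mouse or from 1 fraction of a mouse. Bulk RNA-Seq compared 4 conditional knockout (cKO) mice, mGFAP-Cre with α2-Na/K ATPase loxP/loxP, with 4 sex-matched littermate control (Ctrl) mice, loxP/loxP or loxP/+ without Cre, at postnatal day 24 (P24) and again at P17. Translating ribosome affinity purification (TRAP-Seq) at P24 used 3 cKO and 3 Ctrl mice in which Cre switches on EGFP fused to the ribosomal protein Rpl10a, so that an antibody to GFP pulls down astrocyte ribosomes with their mRNA (IP), and the starting lysate (Input) was sequenced beside it. The mGFAP-Cre driver acts in astrocytes, and the study gives the loxP alleles of the TRAP-Seq Ctrl mice as in bulk, although an IP needs Cre in these mice too.

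Libraries held 8855488 to 14575306 counts in bulk and 18433087 to 27242445 in TRAP-Seq. Levels below are CPM, read counts relative to the library total, scaled by edgeR's TMM factors, and 3 counts correspond to at most 0.339 CPM in any library. In Ctrl IP against Input, 7 of 7 astrocyte markers were higher and 5 of 6 neuron, 4 of 5 oligodendrocyte, 5 of 5 microglia and 4 of 4 endothelial markers were lower, with 1 of 2 mural markers higher. The IP still held RNA of other cells. Summed neuron markers averaged 2168 CPM in Ctrl IP against 4898 CPM in Ctrl Input, and oligodendrocyte markers 1333 against 2087 CPM. How much of the IP level of each gene came from other cells was not tested. The Input was not equivalent to bulk cortex, since its summed astrocyte markers averaged 894 CPM in Ctrl against 3866 CPM in P24 bulk Ctrl, and its endothelial markers 4.66 against 87.8 CPM. Among replicates 2 libraries stood apart by their counts over all genes. Input cKO replicate 1 differed from the other two by a chi-square per degree of freedom of 85.2 and 89.9, against 8.99 between them, and P24 bulk cKO replicate 1 differed by 12.7 to 15.8 from the other three, against 3.46 to 5.25 among them.

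A gene was called where its p from edgeR's quasi-likelihood test, adjusted by Benjamini-Hochberg across every gene tested, was under 0.05. Statements that the libraries of 2 groups did not overlap are descriptions, since the share of all genes that separate so was not counted. In P24 bulk 1 of the 9 genes was called, Gpt, against 1.72% of the 22495 genes tested and 1.26% called higher in cKO. In P17 bulk it was again Gpt alone, against 0.0943% of 21201 genes called and 0.0660% called higher. In IP 2 of 9 were called, against 20.0% of 23864 genes, with Gpt higher (11.6% of genes were called higher) and Gpt2 lower (8.42% called lower). The IP share is therefore near its background. In Input edgeR's quasi-likelihood test called 0 of 9 against 0.109% of 23828 genes, while 1 of 9, Gpt, had an unadjusted p under 0.05 and was called by edgeR's likelihood ratio test and by DESeq2. In Ctrl IP against Input 9 of 9 were called, 6 higher (35.3% of genes were called higher) and 3 lower (35.7% called lower), against 71.0% of 24385 genes.

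**Figure D1:**
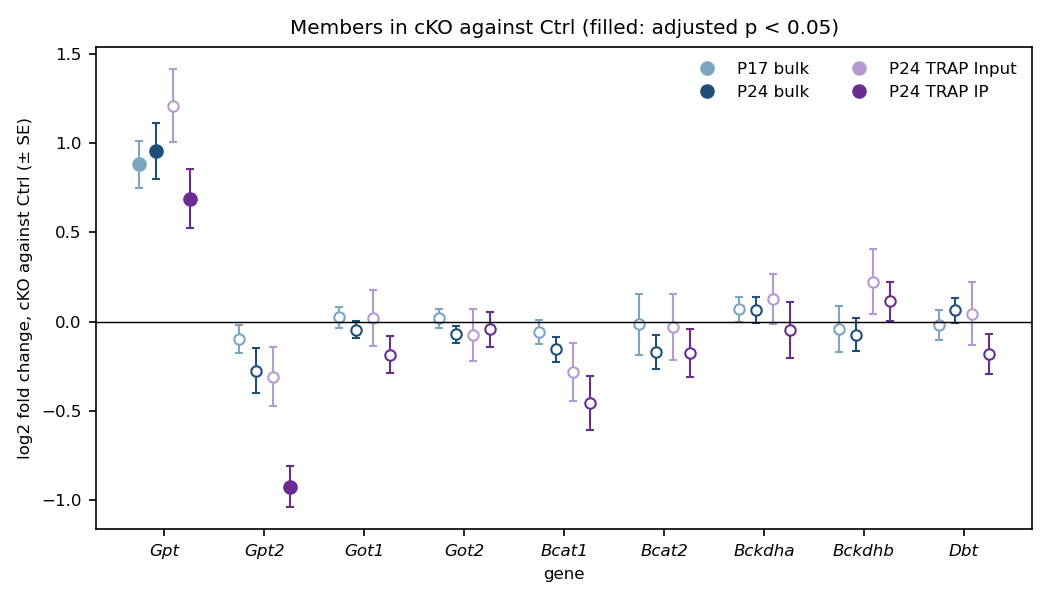
The log2 fold change of each gene (x axis) in cKO against Ctrl mice with its standard error (y axis), for P17 bulk, P24 bulk, P24 TRAP Input and P24 TRAP IP, with filled points where the adjusted p was under 0.05. Gpt lies above 0 in all 4 comparisons, from 0.69 to 1.21, while Gpt2 lies at -0.93 in IP and the other 7 genes hold open points throughout.

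Gpt, the cytosolic alanine transaminase (chromosome 15, 76695716 to 76699686, plus strand, GRCm38), was higher in cKO in every experiment. At P24 in bulk cortex the Ctrl libraries held 10.0, 6.90, 8.60 and 7.05 CPM and the cKO libraries 16.5, 16.7, 18.7 and 11.5 CPM. Every cKO library lay above every Ctrl library, and the log2 fold change was 0.96 ± 0.16 (SE, n = 4 and 4, edgeR adjusted p = 0.00793), or 1.95-fold. Without cKO replicate 1 it was 0.94 (adjusted p = 0.00582).

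At P17 Gpt stood at 6.37, 7.45, 8.70 and 7.13 CPM in Ctrl and at 11.5, 12.8, 15.8 and 14.3 CPM in cKO cortex. The groups again did not overlap, and the log2 fold change was 0.88 ± 0.13 (edgeR adjusted p = 0.0245). This call was lost on leaving out any one of 6 of the 8 libraries, namely Ctrl replicates 1, 2 and 4 and cKO replicates 2, 3 and 4, with log2 fold changes from 0.80 to 0.97 over the 8 leave-outs and adjusted p values of up to 0.129. These P17 fits did not pair the libraries. With the replicate number as a block and all libraries kept, the log2 fold change of Gpt was 0.87 (edgeR adjusted p = 8.89e-05). The change did not differ detectably between ages, with an age by genotype difference of 0.07 ± 0.22 on the log2 scale (edgeR adjusted p = 0.993).

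On astrocyte ribosomes Gpt was enriched, at 21.1, 32.1 and 26.9 CPM in Ctrl IP against 3.46, 4.73 and 3.80 CPM in Ctrl Input. That enrichment, 2.74 ± 0.18 on the log2 scale (edgeR adjusted p = 1.02e-07), was the largest among the 9 genes. In cKO IP Gpt reached 36.1, 42.1 and 50.4 CPM, above all 3 Ctrl IP libraries, for a log2 fold change of 0.69 ± 0.16 (n = 3 and 3, edgeR adjusted p = 0.0130).

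In the Input of the cKO mice Gpt stood at 10.2, 9.74 and 7.73 CPM, also above all 3 Ctrl Input libraries. The fold was larger there, 1.21 ± 0.21 on the log2 scale, but it was not called by the quasi-likelihood test (adjusted p = 0.127). It was called by the likelihood ratio test (adjusted p = 0.000516), by DESeq2 (0.000596), without the filter on low counts (0.0146), and on leaving out cKO replicate 1, the library that stood apart (1.13, 0.0407). The fraction by genotype difference for Gpt was -0.53 ± 0.27 (adjusted p = 0.612), so the change in IP was not shown to differ from that in Input.

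Astrocyte markers moved with genotype in some of these comparisons. Their summed level in Input was 814 to 938 CPM in Ctrl and 1116 to 1453 CPM in cKO, beside the Gpt values above, and its part in them was not tested. In P24 bulk the sum went the other way, from 3608 to 4218 CPM in Ctrl and from 3210 to 3577 CPM in cKO, with Aqp4 and Aldh1l1 higher and Slc1a3 and Slc1a2 lower. At P17 the sums overlapped (4205 to 4505 CPM in Ctrl and 4033 to 4456 CPM in cKO), as they did in IP (8362 to 11038 CPM in Ctrl and 7633 to 10171 CPM in cKO), where Slc1a3, Slc1a2 and Gjb6 were lower. In bulk tissue fewer cells of a type and less RNA per cell cannot be told apart.

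**Figure D2:**
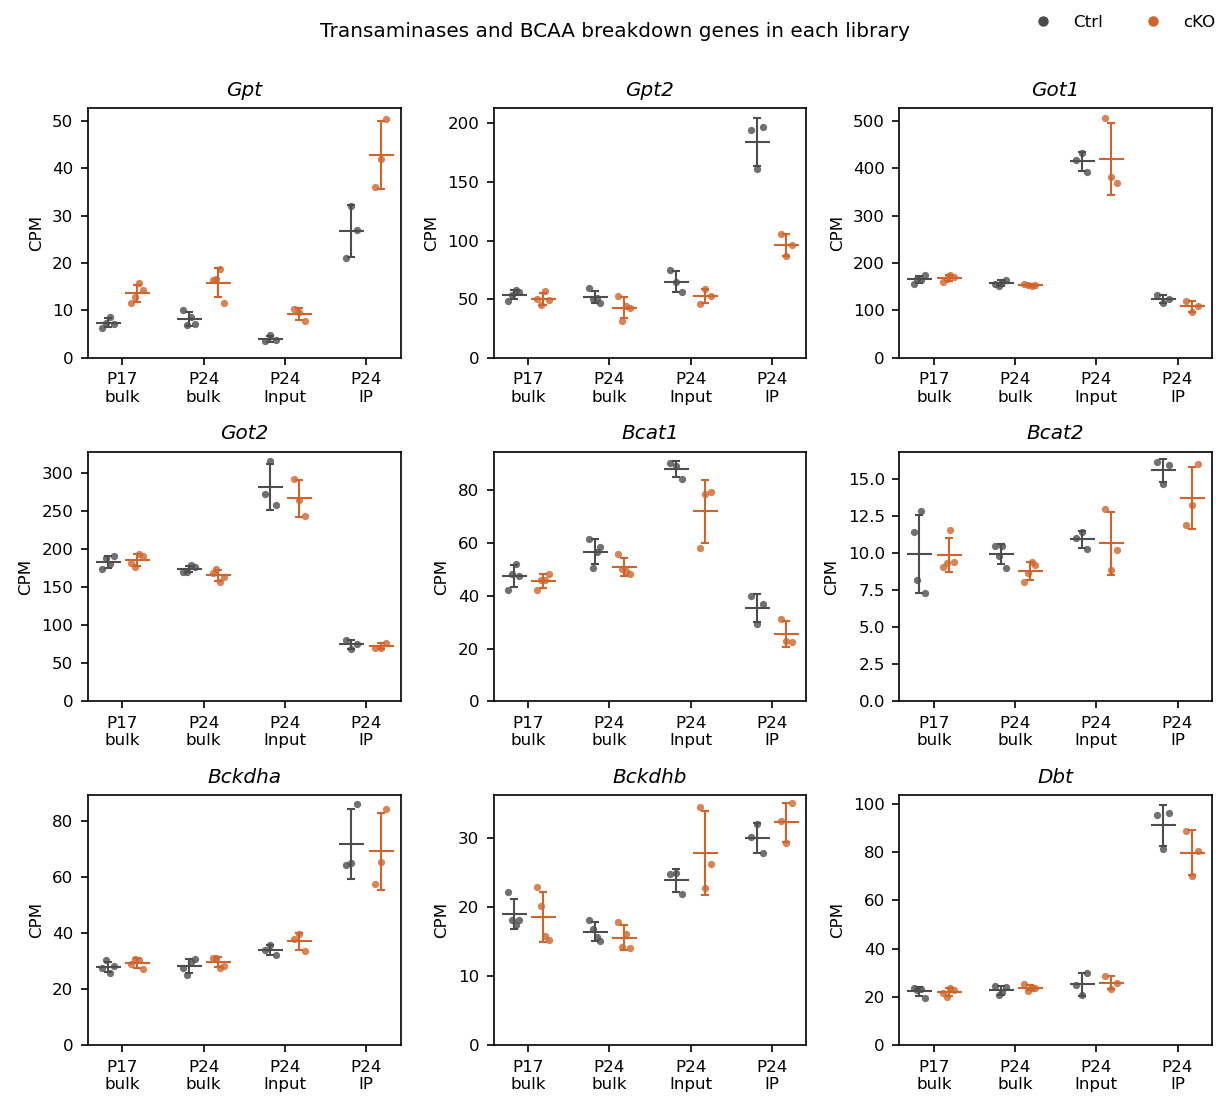
CPM (y axis, linear from 0, a scale of its own for each gene) of the 9 genes in each library of P17 bulk, P24 bulk, P24 TRAP Input and P24 TRAP IP (x axis), with points for single libraries and bars for mean ± SD (n = 4 per bulk group, n = 3 per TRAP group). The cKO points of Gpt lie above the Ctrl points in all 4 experiments, those of Gpt2 lie below them in IP, and the IP points of Got1 and Got2 lie below those of Input.

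Gpt2, the mitochondrial alanine transaminase (chromosome 8, 85492576 to 85527560, plus strand), was the only one of the 9 genes called lower in cKO by the main tests. Bcat1 in IP was called lower under 5 of 6 alternative settings, as described below. In IP it stood at 194, 161 and 197 CPM in Ctrl and at 106, 86.4 and 96.4 CPM in cKO. The highest cKO library lay well below the lowest Ctrl library, and the log2 fold change was -0.93 ± 0.11 (edgeR adjusted p = 0.000543). Gpt2 was itself enriched on astrocyte ribosomes in Ctrl mice, by 1.49 ± 0.13 on the log2 scale (adjusted p = 8.32e-07).

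Outside the IP the groups overlapped for Gpt2. In P24 bulk it stood at 59.5, 50.6, 51.0 and 46.9 CPM in Ctrl and at 53.1, 31.8, 44.2 and 42.3 CPM in cKO (log2 fold change -0.28 ± 0.13, edgeR adjusted p = 0.380), and without cKO replicate 1 the log2 fold change was -0.40 (adjusted p = 0.0559). In P17 bulk the values ran from 48.6 to 58.2 CPM in Ctrl and from 44.9 to 57.1 CPM in cKO (-0.10 ± 0.08, adjusted p = 1). In Input they ran from 56.0 to 74.5 CPM in Ctrl and from 46.2 to 58.2 CPM in cKO (-0.31 ± 0.16, adjusted p = 0.812). The fraction by genotype difference was -0.62 ± 0.21 on the log2 scale (adjusted p = 0.354), and with the mouse as a block it was -0.63 (adjusted p = 0.529). Without Input cKO replicate 1 it was -0.71 (adjusted p = 0.0607). A change limited to the IP was therefore not shown. The Input is a lysate of all cortical cells, so this difference does not compare bound with unbound RNA of astrocytes. Side by side and with no test, mean IP level over mean Input level was 2.83 in Ctrl and 1.84 in cKO for Gpt2, and 6.69 and 4.64 for Gpt.

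The transcript balance of the alanine transaminase pair is described here with no test, since it was computed after the values of both genes had been seen. Divided by exonic length, Gpt and Gpt2 together made 41.7 ± 2.33 CPM per kilobase in Ctrl IP and 31.6 ± 2.35 in cKO IP (SD, n = 3). Of that sum Gpt took 17.2 to 27.7% in Ctrl and 39.6 to 50.1% in cKO. In P24 bulk cortex the sums of the genotypes overlapped (11.98 ± 1.42 in Ctrl and 12.98 ± 1.91 in cKO, SD, n = 4) and the Gpt share ran from 20.8 to 24.5% in Ctrl and from 34.4 to 50.1% in cKO. At P17 the share was 19.7 to 22.3% in Ctrl and 30.7 to 35.7% in cKO, and in Input 8.18 to 12.3% and 22.0 to 29.8%.

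**Figure D3:**
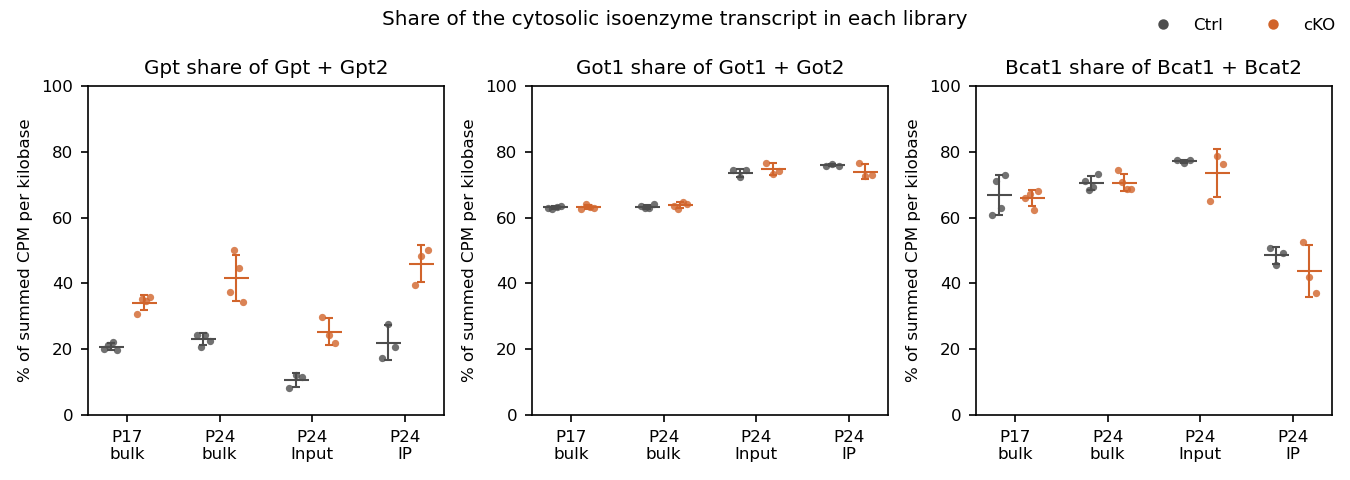
Share of the cytosolic enzyme's transcript (Gpt, Got1 or Bcat1) in the length-scaled sum of its pair (y axis, percent of summed CPM per kilobase), in each library of P17 bulk, P24 bulk, P24 TRAP Input and P24 TRAP IP (x axis), with bars for mean ± SD. The Gpt share of the cKO libraries lies above that of the Ctrl libraries in all 4 experiments, reaching 39.6 to 50.1% in IP, while the Got1 and Bcat1 shares of the genotypes overlap.

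Promoter windows of 250 bases before to 50 bases after an annotated start were found in RefSeq (GRCm38.p6) for 7 of the 9 genes, as 10 windows. Bcat1, Bcat2 and Bckdhb each had a further window at a start inside the gene. They were searched on both strands for TGATGNAA, the amino acid response element that Atf4 binds when amino acids run short, whose reverse complement is TTNCATCA. It was present in 1 of the 10 windows, that of Got1, and in 3.97% of all 32851 windows. The median GC content was 55.7% in the 10 windows and 52.7% over all, with a median of 14.5 CpG dinucleotides against 7. The 250 bases before the start are shown for Gpt2, the gene called lower on astrocyte ribosomes, which has no match, and for Got1, with its match in capitals, beginning 102 bases before the start.
Gpt2, chr8:85492326-85492575, plus strand: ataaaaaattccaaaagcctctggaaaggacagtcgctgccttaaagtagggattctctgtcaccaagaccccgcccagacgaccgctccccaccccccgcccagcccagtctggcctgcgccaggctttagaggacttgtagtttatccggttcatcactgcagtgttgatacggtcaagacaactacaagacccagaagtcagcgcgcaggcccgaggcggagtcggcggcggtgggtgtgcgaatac
Got1, chr19:43524606-43524855, minus strand: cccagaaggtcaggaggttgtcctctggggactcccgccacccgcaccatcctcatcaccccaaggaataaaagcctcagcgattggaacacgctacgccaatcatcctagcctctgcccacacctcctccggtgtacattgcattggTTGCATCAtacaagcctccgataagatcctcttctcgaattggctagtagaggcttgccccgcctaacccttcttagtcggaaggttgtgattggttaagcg
No promoter window was used for Gpt or Dbt, and a match is a description of letters, not of binding.

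Got1 (chromosome 19, 43499752 to 43524605, minus strand) and Got2 (chromosome 8, 95864134 to 95888547, minus strand) encode the cytosolic and mitochondrial aspartate transaminases, which carry reducing equivalents into mitochondria as part of the malate-aspartate shuttle. Neither was called in cKO against Ctrl in any experiment. Got1 held the highest mean level per kilobase of the 9 genes in all 8 groups. In cKO IP its SD range overlapped that of Bckdha (42.8 ± 4.45 and 36.3 ± 7.26 CPM per kilobase).

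Got1 in P24 bulk stood at 156, 152, 160 and 165 CPM in Ctrl and at 155, 153, 151 and 154 CPM in cKO (log2 fold change -0.05 ± 0.05, edgeR adjusted p = 0.743). In P17 bulk it ran from 156 to 176 CPM in Ctrl and from 160 to 176 CPM in cKO (0.02 ± 0.06, adjusted p = 1). In IP it stood at 133, 116 and 124 CPM in Ctrl and at 120, 97.6 and 108 CPM in cKO (-0.19 ± 0.10, adjusted p = 0.242). In Input the cKO libraries spread from 369 to 506 CPM, around the Ctrl range of 393 to 433 CPM (0.02 ± 0.16, adjusted p = 0.980), and without cKO replicate 1, the highest, the log2 fold change was -0.14. The genotypes overlapped in each experiment.

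Got2 stood at 170, 171, 179 and 176 CPM in P24 bulk Ctrl and at 169, 174, 157 and 163 CPM in cKO (-0.07 ± 0.05, edgeR adjusted p = 0.585). In P17 bulk it ran from 173 to 191 CPM in Ctrl and from 177 to 193 CPM in cKO. In IP it stood at 80.9, 68.5 and 75.5 CPM in Ctrl and at 70.1, 69.8 and 76.8 CPM in cKO (-0.04 ± 0.10, adjusted p = 0.801), and in Input it ran from 258 to 316 CPM in Ctrl and from 244 to 292 CPM in cKO (-0.08 ± 0.15, adjusted p = 0.895).

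Both aspartate transaminases were lower on astrocyte ribosomes than in the Input. Got1 fell from 418, 433 and 393 CPM in Ctrl Input to the IP values above, a log2 fold change of -1.75 ± 0.10 (edgeR adjusted p = 2.75e-08). Got2 fell from 273, 316 and 258 CPM, a log2 fold change of -1.93 ± 0.11 (adjusted p = 3.95e-08). The Got1 share of the pair per kilobase stayed between 62.6 and 64.2% in P17 bulk and between 62.6 and 64.7% in P24 bulk over both genotypes, and between 72.3 and 76.7% in TRAP-Seq libraries. An unnamed transcript, Gm45760, overlaps 434 of the 4824 exonic bases of Got2 on the opposite strand, and how the counts treated strand is not given in the sources used here.

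**Figure D4:**
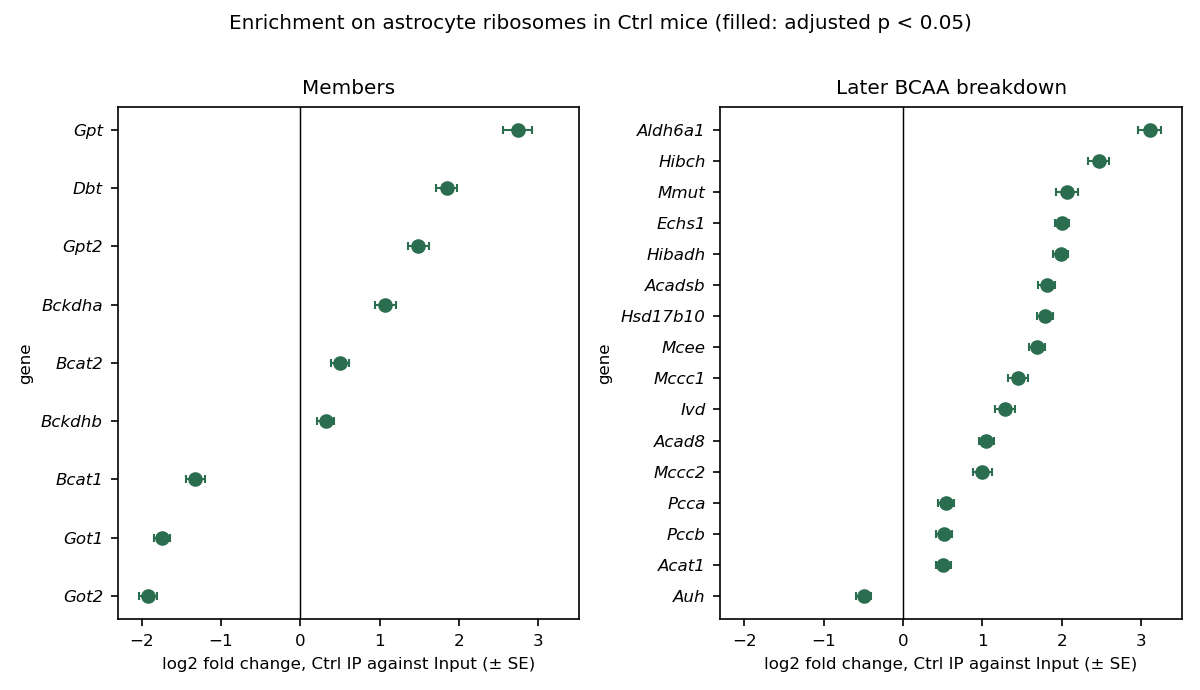
The log2 fold change with its standard error (x axis) of Ctrl IP against Ctrl Input (n = 3 and 3) for the 9 genes and for genes of the later steps of branched-chain amino acid breakdown (y axis), with filled points where the adjusted p was under 0.05. Gpt, at 2.74, and Dbt, at 1.85, lead the 9 genes, Got1, Got2 and Bcat1 lie below 0, and of the later genes drawn Auh, at -0.50, lies below 0.

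Bcat1 (chromosome 6, 144993835 to 145076184, minus strand), the cytosolic branched-chain transaminase, stood in IP at 39.8, 29.4 and 36.8 CPM in Ctrl and at 31.4, 22.8 and 22.6 CPM in cKO. The groups overlapped by 1 cKO library, replicate 1, and the log2 fold change of -0.46 ± 0.15 was not called (edgeR adjusted p = 0.0537). Without cKO replicate 1 it was -0.60 and was called, as it was without Ctrl replicate 2 (-0.57). It was also called with the likelihood ratio test, DESeq2, library size alone, no filter on low counts and the replicate number as a block (adjusted p = 0.00546 in the last).

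In Input Bcat1 stood at 90.4, 89.1 and 84.5 CPM in Ctrl and at 58.2, 78.8 and 79.2 CPM in cKO. All 3 cKO libraries lay below the Ctrl libraries, and the log2 fold change of -0.29 ± 0.16 was not called (edgeR adjusted p = 0.812). The lowest value came from cKO replicate 1, without which it was -0.15. In P24 bulk Bcat1 ran from 50.6 to 61.4 CPM in Ctrl and from 48.2 to 56.0 CPM in cKO (-0.16 ± 0.07, adjusted p = 0.372), and in P17 bulk from 42.3 to 52.1 and from 42.2 to 48.3 CPM (-0.06 ± 0.07). Bcat1 was lower on astrocyte ribosomes than in Input, by -1.33 ± 0.12 on the log2 scale (adjusted p = 1.10e-06).

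Bcat2 (chromosome 7, 45570153 to 45589711, plus strand), the mitochondrial branched-chain transaminase, was among the lowest of the 9 genes. It ran from 9.01 to 10.5 CPM in P24 bulk Ctrl and from 8.07 to 9.43 CPM in cKO (log2 fold change -0.17 ± 0.09, edgeR adjusted p = 0.476). At P17 its Ctrl libraries spread from 7.35 to 12.9 CPM, wider than the cKO libraries at 9.10 to 11.6 CPM (-0.02 ± 0.17, adjusted p = 1). In IP it stood at 16.17, 14.68 and 15.95 CPM in Ctrl and at 11.89, 13.24 and 16.01 CPM in cKO (-0.18 ± 0.13, adjusted p = 0.401), and in Input the cKO libraries ran from 8.84 to 13.02 CPM (-0.03 ± 0.19, adjusted p = 0.973), and without replicate 1 the log2 fold change was -0.19.

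Unlike Bcat1, Bcat2 was higher on astrocyte ribosomes than in Ctrl Input (11.04, 11.45 and 10.32 CPM), with a log2 fold change of 0.50 ± 0.11 (edgeR adjusted p = 0.00200). The Bcat1 share of the pair per kilobase was accordingly 76.5 to 77.4% in Ctrl Input and 45.6 to 50.8% in Ctrl IP. Antisense transcripts share 622 of the 3900 exonic bases of Bcat2 (0610005C13Rik) and 337 of the 9322 of Bcat1 (Gm26666).

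Bckdha, Bckdhb and Dbt encode the E1 alpha, E1 beta and E2 subunits of the branched-chain ketoacid dehydrogenase, E1 removing the carboxyl group of the ketoacid and E2 passing the remaining acyl group to coenzyme A. None of the 3 was called in cKO against Ctrl in any experiment, and all 3 were higher on astrocyte ribosomes than in Input.

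Dbt (chromosome 3, 116513070 to 116549981, plus strand) was the most enriched of the subunits, at 95.6, 81.3 and 96.3 CPM in Ctrl IP against 24.8, 20.7 and 30.0 CPM in Ctrl Input, a log2 fold change of 1.85 ± 0.13 (edgeR adjusted p = 1.56e-07). In cKO IP it stood at 88.7, 70.1 and 80.7 CPM, a log2 fold change of -0.18 ± 0.11 (adjusted p = 0.292). Bulk cortex held 20.6 to 24.6 CPM in Ctrl and 22.4 to 25.2 CPM in cKO at P24 (0.06 ± 0.07, adjusted p = 0.769), and 19.6 to 23.5 and 19.8 to 23.8 CPM at P17. Input of cKO mice held 23.2 to 28.7 CPM (0.04 ± 0.18, adjusted p = 0.955).

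Bckdha (chromosome 7, 25629946 to 25658981, minus strand) stood at 64.1, 64.9 and 85.9 CPM in Ctrl IP and at 57.4, 65.3 and 84.2 CPM in cKO IP, ranges that nearly coincided (log2 fold change -0.05 ± 0.16, edgeR adjusted p = 0.877). Ctrl Input held 33.7, 35.7 and 32.1 CPM, so the IP was 1.07 ± 0.13 higher on the log2 scale (adjusted p = 1.47e-05). In bulk it ran from 24.8 to 31.1 CPM over all 8 P24 libraries and from 25.8 to 30.8 CPM over all 8 P17 libraries, and in cKO Input from 33.7 to 39.4 CPM (0.13 ± 0.14, adjusted p = 0.833). Of its 1899 exonic bases, 1171 are shared with B3gnt8 on the opposite strand, and the IP was higher than Input for B3gnt8 by 1.09 ± 0.13, so that reads of the pair cannot be told apart without strand and the Bckdha values are uncertain to that extent.

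Bckdhb (chromosome 9, 83925145 to 84124240, plus strand) showed the smallest enrichment, at 30.1, 32.1 and 27.8 CPM in Ctrl IP against 24.7, 25.0 and 21.9 CPM in Ctrl Input (0.32 ± 0.11, edgeR adjusted p = 0.0204). Leaving out Ctrl Input replicate 3 ended that call, with a log2 fold change of 0.24 (adjusted p = 0.0572). In cKO IP it stood at 32.4, 29.3 and 35.0 CPM (0.11 ± 0.11, adjusted p = 0.507), and in cKO Input at 34.5, 22.7 and 26.2 CPM (0.22 ± 0.18, adjusted p = 0.812). Replicate 1 stood highest there, and without it the log2 fold change was 0.04. In bulk it ran from 15.1 to 18.1 CPM in P24 Ctrl, from 14.0 to 17.9 CPM in P24 cKO, from 17.4 to 22.2 CPM in P17 Ctrl and from 15.2 to 22.9 CPM in P17 cKO.

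Levels of different genes are compared only after division by exonic length. In P24 bulk Ctrl the order was Got1 (62.2 ± 2.25 CPM per kilobase, SD, n = 4), Got2 (36.1 ± 0.93), Bckdha (14.8 ± 1.35), Gpt2 (9.21 ± 0.95), Bckdhb (9.09 ± 0.74), Dbt (6.80 ± 0.55), Bcat1 (6.09 ± 0.50), Gpt (2.77 ± 0.50) and Bcat2 (2.55 ± 0.18). Gpt2 and Bckdhb, Dbt and Bcat1, and Gpt and Bcat2 did not differ beyond their SDs.

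In Ctrl IP the order changed to Got1 (49.02 ± 3.503 CPM per kilobase, SD, n = 3), Bckdha (37.7 ± 6.51), Gpt2 (32.6 ± 3.58), Dbt (27.2 ± 2.53), Bckdhb (16.6 ± 1.19), Got2 (15.5 ± 1.29), Gpt (9.08 ± 1.88), Bcat2 (4.00 ± 0.21) and Bcat1 (3.79 ± 0.57). Got1, Got2 and Bcat1 were lower in IP than in Input, as neuron markers were. The part of other cells in their IP levels was not tested, so this is not an order within astrocytes. Bckdha, Gpt2 and Dbt overlapped as neighbours, as did Bckdhb with Got2 and Bcat2 with Bcat1. In cKO IP Gpt2 dropped to 17.04 ± 1.708 and Gpt rose to 14.57 ± 2.431 CPM per kilobase, so that Bckdhb, Gpt2, Got2 and Gpt followed one another with overlapping SDs.

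The later steps of branched-chain breakdown, from Ivd and Acadsb to Mmut, were measured by 17 genes. In Ctrl IP against Input 16 of 17 were called higher and 1 lower, beside 35.3% of all genes called higher and 35.7% called lower. Their median log2 fold change was 1.45 beside -0.03 over all genes. Aldh6a1, the methylmalonate semialdehyde dehydrogenase of valine breakdown, was higher by 3.11 ± 0.14, Hibch, the valine pathway hydrolase, by 2.47 ± 0.13 and Mmut, the methylmalonyl-CoA mutase, by 2.06 ± 0.14 on the log2 scale. Auh, a hydratase of leucine breakdown, was the 1 lower gene (-0.50 ± 0.09, edgeR adjusted p = 0.000494).

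In cKO IP 4 of these 17 genes were called, near the 20.0% of all genes. Among them Echs1, an enoyl-CoA hydratase, was higher by 0.34 ± 0.09 (edgeR adjusted p = 0.0190) and Hibadh, a valine pathway dehydrogenase, by 0.34 ± 0.09 (0.0201), and Mccc1, a subunit of the leucine pathway carboxylase, was lower (-0.41 ± 0.12, 0.0289). The quasi-likelihood test called 0 of 17 in P24 bulk, P17 bulk and Input, beside 1.72%, 0.0943% and 0.109% of all genes. The likelihood ratio test and DESeq2 also called 0 there. An unadjusted p under 0.05 was held by 4, 1 and 3 of the 17, beside 2959 of 22495, 846 of 21201 and 962 of 23828 genes tested.

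Of the partners of the dehydrogenase, Dld, its E3 subunit, was higher in Ctrl IP than in Input (0.75 ± 0.12, edgeR adjusted p = 0.000113). Its kinase Bckdk and phosphatase Ppm1k were not called there, and none of the 3 was called in cKO against Ctrl in any experiment by the quasi-likelihood test, the likelihood ratio test or DESeq2, with 0 at an unadjusted p under 0.05. Of all genes the quasi-likelihood test called 1.72% in P24 bulk, 0.0943% in P17 bulk, 20.0% in IP and 0.109% in Input.

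Among 5 carriers of branched-chain amino acids and their ketoacids, 2 were higher and 2 lower in Ctrl IP than in Input, near the 71.0% of all genes called there. Slc16a1, a monocarboxylate carrier, was higher there by 1.15 ± 0.13 and rose further in cKO IP, by 0.92 ± 0.14 on the log2 scale (edgeR adjusted p = 0.00134). It was the 1 of 5 called in cKO IP against Ctrl IP, beside 20.0% of all genes. Slc3a2, the heavy chain of the large neutral amino acid transporters, was higher in Ctrl IP by 0.93 ± 0.14. It was the 1 of 5 called in P24 bulk by the quasi-likelihood test, beside 1.72% of all genes, higher in cKO by 0.39 ± 0.07 (adjusted p = 0.00857). The likelihood ratio test, which called 619 genes there, and DESeq2 each called 2 of 5. Slc7a8, a light chain, and Slc25a44, the mitochondrial branched-chain carrier, were lower in Ctrl IP than in Input (-2.15 ± 0.13 and -0.74 ± 0.11).

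Of 7 malate-aspartate shuttle and mitochondrial glutamate carrier genes, 5 were lower and 1 higher in Ctrl IP than in Input, beside 35.7% of all genes called lower and 35.3% called higher. Slc25a22 (-1.88 ± 0.13), a glutamate carrier, and Slc25a12 (-1.36 ± 0.09), an aspartate-glutamate carrier, were lower, and Slc25a18, another glutamate carrier, was higher by 3.92 ± 0.16. In cKO IP 1 of 7 was called, Slc25a12, which was lower (-0.38 ± 0.11, edgeR adjusted p = 0.0380), a share below the 20.0% of all genes called, and DESeq2 called 2 of 7.

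Of 12 other aminotransferases, 7 or 8 passed the filter on low counts depending on the comparison. In Ctrl IP against Input 7 of 8 were higher, beside 35.3% of all genes. Among them were Etnppl (4.46 ± 0.51), a phosphoethanolamine lyase of the aminotransferase family, and Psat1 (2.63 ± 0.10), the phosphoserine aminotransferase of serine synthesis. Got1l1 (2.89 ± 0.32), also among the 7, did not pass the filter in bulk or in Input of cKO against Ctrl. It entered here through its IP libraries, so its direction was favoured beforehand and its call is no support. Psat1 was also the 1 of 7 called in P24 bulk, beside 1.72% of all genes, higher in cKO by 0.43 ± 0.06 on the log2 scale (edgeR adjusted p = 0.00263).

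Of 4 glutamate and ammonia enzymes, 2 were called higher and 2 lower in Ctrl IP than in Input, beside 35.3% and 35.7% of all genes. Glul, glutamine synthetase, and Glud1, glutamate dehydrogenase, were higher (3.47 ± 0.11 and 2.50 ± 0.09), while Asns, asparagine synthetase, was among the lower (-1.65 ± 0.12). Glud1 was the 1 of 4 called in P24 bulk, beside 1.72% of all genes, higher in cKO by 0.30 ± 0.04 (edgeR adjusted p = 0.00448). Glul was the 1 of 4 called in cKO IP, where it was lower (-0.56 ± 0.11, edgeR adjusted p = 0.00509), a share near the 20.0% of all genes called there.

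Neither interaction called any of the 9 genes. For age by genotype 0 of 9 were called by the quasi-likelihood test, the likelihood ratio test or DESeq2 and 0 had an unadjusted p under 0.05, against 0.0470% of 23395 genes called. For fraction by genotype 0 of 9 were called by any of the 3 tests, with 1, Gpt2, at an unadjusted p of 0.00887, against 0.0582% of 25768 genes called. Without Input cKO replicate 1 the other Input log2 fold changes of cKO against Ctrl were -0.23 for Gpt2, -0.15 for Got2, 0.11 for Bckdha and -0.035 for Dbt. Leaving out P24 bulk cKO replicate 1 changed no call of the 9 genes in P24 bulk.

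Similarity of pattern is given as a description, as Pearson's r of log2 CPM over the 28 libraries, centred within each experiment, among 16511 genes. The TRAP-Seq libraries share the contrast of IP with Input, which weighs most in it. Gpt was nearest to Tmem176b (0.97) and Gstm1 (0.97), Gpt2 to 1810062O18Rik (0.95) and Sec14l2 (0.95), Got1 to Sult4a1 and Habp4, Got2 to Gm21984 and Vamp2, Bcat1 to Gm47512 and Dlg3 (0.98 each), and Dbt to Paics (0.99) and Bbof1 (0.98). Bckdha was nearest to B3gnt8 (0.97), the gene it overlaps. Bcat2 and Bckdhb had no near match, at 0.78 with Trp53i13 and 0.84 with Tmem132d. Among the 9 genes Got1 and Got2 were the closest pair (0.99), whereas Gpt and Gpt2 stood at 0.51.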

How the data were processed

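The deposited values were raw read counts per Ensembl gene, made by the authors with RNA STAR in Galaxy on the mm10 build; the counter, its strand setting and the annotation are not given in the sources used here. Bulk libraries were primed with oligo-dT, and TRAP-Seq RNA was selected on oligo-dT beads. Of 53342 identifiers per table, 53237 matched GENCODE annotation of GRCm38. The age of each bulk table was read from its name. Counts were tested with edgeR 4.0.16 in R 4.3.3 (TMM scaling, filterByExpr with a minimum of 10 counts per library and 15 in total, quasi-likelihood F test, SE taken as the absolute log2 fold change over the square root of F, Benjamini-Hochberg adjustment over all genes tested). Each cKO comparison used its own libraries, and the age and fraction interactions used all libraries of their experiments. Alternatives were the likelihood ratio test, DESeq2 1.42.0, its size factors (RLE), library size alone, no filter beyond 1 count, a replicate block (the replicate number, within each age for age by genotype, and the mouse where IP was compared with Input and for fraction by genotype) and leaving out each library. The scripts were tested on simulated data. The members and gene lists were chosen with earlier results of these data known. Named list genes are at most 3 per direction with the largest change among those called. Results of a few genes are not reported here. The floor of 3 counts covers counting error only.

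Replicates of bulk and TRAP-Seq were separate mice. Same-numbered P17 libraries deviated together from their group means (correlations 0.167 to 0.38 over genes), so the numbers were read as pairs there. In P24 bulk (0.0286 to 0.218), IP (0.0355 to 0.116) and Input (-0.0342 to 0.102) they were not read so. This check cannot rule pairing out, since Ctrl IP and Input libraries of the same mouse reached only 0.0686 to 0.08. The ranges of P17 and P24 bulk also overlapped. The main tests of cKO against Ctrl, P17 included, fitted genotype alone, and the numbers entered only in the replicate block. IP and Input libraries of the same number came from the same mouse, and the main tests that set IP against Input did not pair them.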

Additional observations from a re-analysis of the deposited data

Results flagged for a closer look

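A Dixon test within each group of 4 bulk libraries marked 2 of 36 gene and group combinations, where chance marks about 1 in 20. Bcat2 in P17 bulk cKO replicate 3 stood at 11.58 CPM, above 9.10 to 9.44 CPM in the other 3 libraries. Bckdhb in P17 bulk Ctrl replicate 1 stood at 22.23 CPM, above 17.4 to 18.1 CPM in the other 3. Groups of 3 libraries in TRAP-Seq were not examined this way.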

How the results depend on the processing

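No called log2 fold change of the 9 genes changed sign under any alternative, and of 378 values under the 6 settings that kept every library 365 kept their sign and side of the threshold. Scaling by library size alone lowered the median log2 fold change of all genes in IP by 0.112, and Gpt there remained higher in cKO at 0.58. The count of genes called moved more. In P24 bulk it was 388, against 619 with the likelihood ratio test and 618 with no filter, and leaving out each library gave 216 to 950, with 950 without cKO replicate 1 and 216 to 239 without Ctrl replicates 1 or 2 or cKO replicates 2, 3 or 4. In P17 bulk it was 20, against 61 with the likelihood ratio test, 41 with DESeq2 and 55 with no filter, and 11 to 20 on leave-outs, with 0 to 1 of the 9 genes. In IP leave-outs gave 2633 to 4810 (4782 with all libraries) with 2 to 3 of the 9 genes, the lowest counts being without cKO replicate 2 (2633) and Ctrl replicates 1 (3068) and 3 (3183). In Input it was 26, against 137 with the likelihood ratio test, 127 with DESeq2 and 112 with no filter, each with 1 of the 9 genes, and 4 to 112 on leave-outs with 0 to 1, with 112 without cKO replicate 1 and 4 or 5 without any one Ctrl library. In Ctrl IP against Input leave-outs gave 16154 to 17296, with 8 to 9 of the 9 genes. Age by genotype gave 11, against 52, 54 and 62 with the likelihood ratio test, DESeq2 and no filter, and 5 to 149 on leave-outs. Fraction by genotype gave 15, against 219, 271 and 189, and 3 to 432 on leave-outs, the highest of these 2 ranges being without P24 bulk cKO replicate 1 and Input cKO replicate 1. The causes were not tested.

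With the replicate block (the mouse for fraction by genotype) the counts were 109 in P17 bulk, where the numbers were read as pairs and Gpt stayed called, 8 in Input, 55 for age by genotype and 6 for fraction by genotype, and in the block Bcat1 was called in IP (-0.46). The block changed no other call of the 9 genes.

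Log2 fold changes near 0 that were not called changed sign. With library size alone this held for Got1 in Input (-0.029), Bckdha for age by genotype (0.014) and Got2 for fraction by genotype (-0.040), and with no filter for the last 2 (0.008 and -0.008). Leaving out 1 library gave, in P17 bulk, -0.006 to 0.052 for Got1, -0.009 to 0.039 for Got2, -0.128 to 0.125 for Bcat2, -0.160 to 0.047 for Bckdhb and -0.073 to 0.030 for Dbt. In IP it gave -0.104 to 0.009 for Got2 and -0.220 to 0.108 for Bckdha. In Input it gave -0.139 to 0.097 for Got1, -0.147 to 0.013 for Got2, -0.194 to 0.092 for Bcat2 and -0.076 to 0.192 for Dbt. For age by genotype it gave -0.014 to 0.199 for Gpt, -0.060 to 0.036 for Bckdha and -0.119 to 0.080 for Bckdhb. For fraction by genotype it gave -0.081 to 0.093 for Got2, -0.284 to 0.007 for Bcat2 and -0.252 to 0.063 for Bckdhb.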
